A study of Mus musculus with 12 samples.

Results

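Glutamatergic nuclei that carried transcripts of the sodium channel gene Scn7a, the growth factor gene Hgf, the collagen gene Col26a1 and the secreted peptidase-domain gene Pamr1 were described in mouse motor cortex. The nuclei were chosen by their own counts of unique molecular identifiers (UMIs, 1 per captured RNA molecule). Each had at least 2 Slc17a7 UMIs (the vesicular glutamate transporter of cortical projection neurons), at most 1 UMI of the GABA-synthesis genes Gad1 and Gad2, and at most 1 UMI of Syt6 and Rprm, which mark corticothalamic cells. The UMIs of Scn7a, Hgf, Col26a1 and Pamr1 summed to at least 4 and exceeded the sum of Deptor, Rxfp2, Rspo2 and Dkkl1, which mark a layer 5 population. This selected 1563 of 51926 barcodes, of which 51683 passed the quality limits (500 or more genes, mitochondrial UMIs below 5%) and 18489 met the glutamatergic criteria.

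The tissue was the right caudal forelimb area, a field of primary motor cortex, cut from 2 to 4 slices of 400 µm per animal, from 6 mice aged 13 weeks. All mice were water-restricted to 1 mL a day in the home cage for the first 10 days. Control mice 1, 3 and 5 stayed on this schedule on days 11 to 13, whereas trained mice 2, 4 and 6 were head-fixed on those days and earned part of their water by pressing a lever with the left paw, over 100 trials a session. Nuclear RNA was captured in droplets with 3' chemistry (version 3.1), and each mouse is 1 replicate. The labels name no strain, sex or genotype, and since the groups differed in head fixation, task and reward delivery together, these cannot be told apart.

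Projection neurons of the neocortex use glutamate and fall into intratelencephalic (IT) cells, which connect cortical areas and striatum, extratelencephalic cells, near-projecting cells and corticothalamic cells. Rorb, a nuclear receptor gene, is known from the middle layers, whereas Bcl11b, Foxp2 and Tle4 are known from deep-layer cells that leave the telencephalon. Hgf encodes hepatocyte growth factor, a secreted ligand of the receptor tyrosine kinase Met, and Scn7a encodes an atypical sodium channel known for sodium sensing. Neuronal firing induces immediate early genes (IEGs) such as Fos, Egr1 and Arc within minutes, and later a delayed set that includes Bdnf, Homer1 and Nptx2.

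The control mice gave 271, 370 and 329 selected nuclei and the trained mice 212, 237 and 144, with 2708862 to 5691571 UMIs summed per mouse. Their median depth was 13274 to 18286 UMIs per mouse, against 9121 to 12374 in all gated glutamatergic nuclei, and a rule that counts UMIs favours deep nuclei. Of all barcodes, 311 occurred in more than 1 mouse and 0 of them were selected. A doublet caller marked 86 of the selected nuclei and 2485 (4.81%) of all kept nuclei. Counts were summed per mouse and are given as CPM, counts scaled to the same total in each library. A fold or level covers nuclei that differ in number and RNA content, and fewer nuclei with a transcript and less of it per nucleus cannot be told apart in a sum.

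The marker genes that chose the nuclei lie at chr2:66673425-66784914 (Scn7a, minus strand), chr5:16553495-16620152 (Hgf, plus strand), chr5:136741759-136883209 (Col26a1, minus strand) and chr2:102550012-102643041 (Pamr1, plus strand) of build mm10. Hgf had at least 1 UMI in 78.5% of the selected nuclei, Col26a1 in 82.1%, Pamr1 in 74.3% and Scn7a in 32.1%. With every nucleus thinned to 2000 UMIs the shares were 27.8%, 25.8%, 19.4% and 6.33%. All 4 genes were found together in 17.1% of the selected nuclei, 3 of them in 41.3%, 2 in 33.2% and 1 in 8.4%. In nuclei outside the glutamatergic gate, which had a median of 3657 UMIs against 14921, the unthinned shares were 5.24%, 9.71%, 6.00% and 1.43%, in the same order of genes. These levels follow from the choice of nuclei and carry no test. Cpne4, a calcium-dependent membrane-binding protein gene that the rule did not use, was present in 74.0% of the selected nuclei (37.4% thinned) and in 40.5% of the remaining glutamatergic nuclei (15.8% thinned).

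Scn7a did not mark all of the selected nuclei, and the label by Scn7a therefore fits a portion of them. Nuclei with a marker sum of exactly 4 numbered 371 and nuclei with a sum of exactly 3, which met every other criterion but were left out, numbered 511. Just inside the threshold Cpne4 stood at 228 CPM and just outside at 199.7 CPM, with Thsd7a at 155 and 135, Rorb at 739.5 and 710.2, and Foxp2 at 29.6 and 27.9. In the 923 nuclei with a sum of 6 or more, Thsd7a stood at 523 CPM and Cpne4 at 455 CPM. The threshold thus lay within a graded range of these genes rather than at a gap.

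The selected nuclei were high in Thsd7a, Galntl6, Adamtsl1, Slc24a3 and Spock3 and in Rorb and Rora, and low in Cdh9, Foxp2, Dscaml1, Meis2 and Bcl11b, beside the remaining glutamatergic nuclei. These levels are a description, since the nuclei were selected on their own counts. The remaining nuclei did not include the Deptor nuclei, so a trait named here may be shared with those. Among 6408 genes at 20 CPM or more in either population, 69 (1.08%) were at least 2-fold higher in each of the 6 mice and 64 (0.999%) at least 2-fold lower, with 5 CPM added to both levels.

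Thsd7a, which encodes a membrane protein with thrombospondin repeats (chr6:12311610-12749410, minus strand), had the largest difference of the genes that the rule did not use. Control mice 1, 3 and 5 had 358, 466 and 390 CPM, trained mice 2, 4 and 6 had 484, 402 and 339 CPM, and the mean was 406 ± 57.7 CPM (SD, n = 6), against 45.3 ± 4.15 CPM in the remaining glutamatergic nuclei. The log2 difference was 3.02 ± 0.17 (SD over 6 mice), and every mouse was several-fold higher in the selected nuclei. Galntl6, a glycosyltransferase-family gene, stood at 2076 against 360 CPM (log2 difference 2.51), and Slc24a3, which encodes a potassium-dependent sodium-calcium exchanger, at 524 against 104 CPM (2.27). Spock3, a matrix proteoglycan gene, stood at 397 against 79.4 CPM (2.24).

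Cpne4 was at 389 ± 76.7 CPM against 97.7 CPM, with 239 CPM in control mouse 5 and 394 to 455 CPM in the other 5 mice. Control mouse 5 also stood apart for Adamtsl1, a secreted matrix protein gene, with 72.6 CPM against 111 to 219 CPM in the others. Rorb was at 747 ± 226 against 226 ± 78.6 CPM (log2 difference 1.72 ± 0.15), from 536 CPM in control mouse 1 to 1136 CPM in control mouse 5. Rorb varied from mouse to mouse in the remaining glutamatergic nuclei as well, from 138 to 354 CPM in the same 2 mice, so that its log2 difference had the small SD given.

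At the low end, Foxp2, a transcription factor gene of corticothalamic cells, was at 16.5 ± 7.8 CPM against 127 ± 14.9 CPM (log2 difference -2.69 ± 0.42). Bcl11b, a transcription factor gene of extratelencephalic cells, was at 20.1 ± 8.8 against 105 ± 18.8 CPM (-2.18 ± 0.34), and the cadherin gene Cdh9 at 7.53 against 87.7 CPM (-2.89). The order of the 30 genes and the spread between mice appear in the plot of log2 differences by gene.

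**Figure D1:**
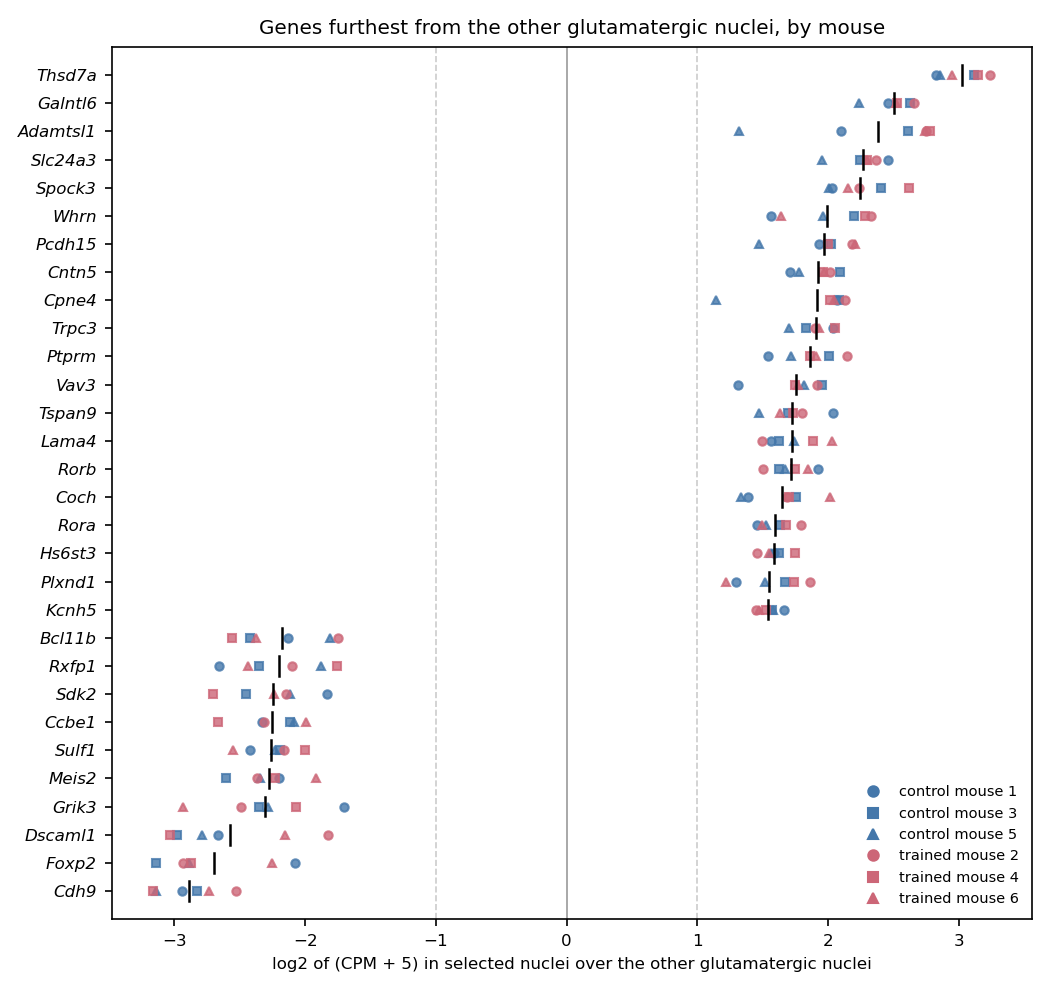
Log2 ratio of selected over remaining glutamatergic nuclei (5 CPM added to both) for the 20 genes with the highest and the 10 with the lowest values. Points are mice, black ticks are means of 6 mice and dashed lines mark a 2-fold difference. All points lie beyond the dashed lines, and control mouse 5 is the lowest point for Cpne4 and Adamtsl1.

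Marker lists for projection-neuron classes were set beside these levels. All 3 genes of the L4/5 IT list that reached 20 CPM (Whrn, Kcnh5 and Rorb) were 2-fold higher in every mouse, with a list median of 1.72 on the log2 scale against -0.01 over all 6408 genes. Whrn, a PDZ scaffold gene, was at 46.1 ± 14.9 against 7.38 CPM and Kcnh5, a voltage-gated potassium channel gene, at 461 ± 84.4 against 155 CPM. Of the L5 IT list, 1 of 4 such genes was higher (Il1rapl2, 544 ± 50.8 against 208 ± 20.7 CPM). None of 4 L2/3 IT genes was, and 2 of 4 L6 CT genes (Foxp2 and Tle4) were lower. The L5 IT list includes Deptor, Rxfp2, Rspo2 and Dkkl1, and the L6 CT list includes Syt6 and Rprm. The rule limited the counts of these genes, so the results of both lists were partly set by the choice of nuclei. Nuclei with at least 4 Rorb and 2 Cux2 UMIs and a rule marker sum of at most 1 (659 nuclei) were set in place of the remaining nuclei. They had 939 CPM of Rorb, a level that follows from their choice. Beside them the log2 difference of Rorb was -0.34, that of Sdk2 0.23 and that of Bcl11b 0.75. Thsd7a was at 58.4 CPM, Cpne4 at 104 CPM and Il1rapl2 at 37.1 CPM there, below the selected nuclei. The gate also kept out nuclei with more of the rule markers, and what this adds to these gaps was not tested. The profile summed over all selected nuclei thus held L4/5 IT genes and an L5 IT gene together, which need not hold in each nucleus. The nuclei are called here by their genes and not by a layer.

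Among channels, receptors and guidance genes the list medians lay between -0.09 and 0.22 on the log2 scale, against -0.01 over all genes. The counts of 2-fold members here and in the following paragraphs stand beside 1.08% of all 6408 genes higher and 0.999% lower. Of 14 sodium channel and channel-partner genes at 20 CPM or more, Scn7a, on which the nuclei were chosen, was the one with a 2-fold difference in all mice, and the list median was 0.21. Scn2a was at 399 ± 24.2 against 330 ± 18.4 CPM and Fgf12, a channel-binding factor, at 2146 against 1229 CPM. Of 29 potassium channel genes, Kcnh5 and Kcnq3 (1399 ± 97.3 against 647 ± 23.4 CPM, an M-current subunit) were higher, with a median of 0.15.

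In HGF signalling, 14 of 35 listed genes reached 20 CPM. Hgf, a rule gene, was higher and the co-receptor gene Nrp1 lower (25.0 ± 11.7 against 107 ± 21.2 CPM). Met, the Hgf receptor, did not reach 20 CPM, at 15.9 ± 5.4 CPM in the selected and 6.27 ± 0.55 CPM in the remaining nuclei. The adaptor genes Grb2, Sos1 and Pik3r1 lay between -0.16 and -0.04 on the log2 scale.

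Of 26 glutamate receptor genes, 1 was higher and 3 were lower. The AMPA receptor subunit gene Gria3 was lower (480 ± 74.6 against 1054 ± 114 CPM), as were the kainate receptor subunit genes Grik3 (15.4 against 90.9 CPM) and Grik4 (39.7 against 111 CPM). Gria4 stood at 1843 ± 124 against 835 ± 86.9 CPM, a log2 difference of 1.14 ± 0.09 that fell short of 2-fold in at least 1 mouse, and the AMPA auxiliary gene Cnih3 was higher (122 against 40.4 CPM).

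Of 17 modulator receptor genes, Crhr1, the corticotropin-releasing hormone receptor, was higher (58.3 ± 8.8 against 20.5 ± 3.7 CPM). The opioid receptor gene Oprm1 was lower (38.6 against 111 CPM), as was the orexin receptor gene Hcrtr2 (5.8 against 22.9 CPM). Of 33 axon guidance genes, Slit2 (274 against 92.7 CPM) and the semaphorin receptor gene Plxnd1 (40.1 against 10.1 CPM) were higher, and Sema6d, Nrp1, Robo3 and Sema5a lower.

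The selected nuclei were not uniform. Clustering without the rule genes and without activity, stress, mitochondrial and sex-linked genes gave 9 clusters, which were kept by number and carry no test. Cluster 1 (338 nuclei) was led by abundant transcripts such as Cck, C1ql3, Ubb and Hspa8 and had the lowest median depth, 11366.5 UMIs. Clusters 2 (309 nuclei) and 3 (292 nuclei) held most of the Scn7a signal, at 74.4 and 58.4 CPM, with Cpne4 at 584 and 619 CPM. Cluster 2 was led by Thsd7a (881 CPM), Ptprm and Whrn, and cluster 3 by Zfp804b, Ptpro and the serotonin receptor gene Htr2c.

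Clusters 4 (240 nuclei) and 5 (160 nuclei) had little Scn7a, at 3.6 and 1.6 CPM, although Hgf was at 210 and 124 CPM. Cluster 4 was led by Mamdc2, Pld5 and Alcam. Cluster 5 was led by Grik1, Antxr1, Cux1 and Calb1, with Rorb at 1886 CPM and Cpne4 at 34.8 CPM. Il1rapl2 was at 122 and 36.4 CPM in clusters 4 and 5, against 441, 819 and 915 CPM in clusters 1, 2 and 3. Whrn was at 10.4 and 14.6 CPM in clusters 1 and 4, and at 97.8, 33.8 and 103 CPM in clusters 2, 3 and 5. Whrn and Il1rapl2 were thus not both high in every cluster. Cluster 5 held 0, 33 and 77 nuclei of control mice 1, 3 and 5 and 26, 21 and 3 nuclei of trained mice 2, 4 and 6, which is the most uneven distribution over mice among the 5 large clusters.

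The other clusters carried genes of further classes. Cluster 6 (93 nuclei) was led by Nxph1 and Tshz2, known from near-projecting cells, with the astrocyte gene Slc1a3 and the glial gene Ptgds, and the doublet caller marked 52.7% of it. Cluster 7 (82 nuclei) was led by Dscaml1 and Rxfp1 and held Tnfaip6, cluster 8 (28 nuclei) by Bcl11b, and cluster 9 (21 nuclei) by microglial genes such as C1qa and Csf1r, with 66.7% marked as doublets. Clusters 1 to 5 held 1339 nuclei and clusters 6 to 9 held 224. For several named genes that lead one of the latter clusters, values without them or in single clusters are given, or that they could not be tested there. Among clusters 1 to 5, 86 genes were 2-fold higher and 108 lower than in the remaining glutamatergic nuclei.

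**Figure D2:**
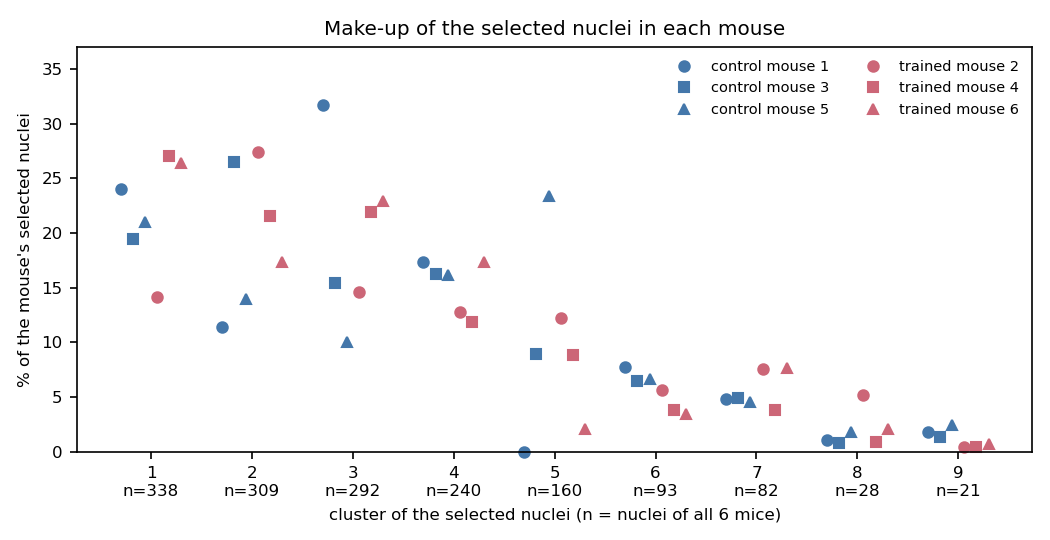
Percent of each mouse's selected nuclei in each of 9 clusters. Each point is 1 mouse. Cluster 5 ranges from 0% in control mouse 1 to 23.4% in control mouse 5, whereas cluster 4 lies between 11.8% and 17.4% in all 6 mice.

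The share of selected nuclei was compared between trained and control mice. They made up 2.67%, 2.95% and 4.27% of kept nuclei in control mice 1, 3 and 5 and 2.99%, 2.74% and 2.59% in trained mice 2, 4 and 6. Control mouse 5 was highest (95% Wilson interval 3.85% to 4.75%, which covers counting error only) and the groups overlapped. The means were 3.30% ± 0.86 and 2.77% ± 0.20 (SD, n = 3 each), and the permutation test (exact, two-sided) gave p = 0.5, where 3 against 3 mice cannot go below 0.1. Of glutamatergic nuclei the shares were 9.61% ± 3.40 and 7.68% ± 0.39 (exact permutation p = 0.6, n = 3 each). Without control mouse 5 the difference of that share was 0.0131 percentage points. Leaving out cluster 5 was not planned in advance. Without it the shares of kept nuclei did not overlap, at 2.67% to 3.27% in control and 2.497% to 2.62% in trained mice. The exact permutation p was 0.1, the smallest this design allows. The shares of glutamatergic nuclei without it overlapped, at 7.18% to 10.34% in control and 6.67% to 7.49% in trained mice (exact permutation p = 0.3). No comparison of shares could reach a p under 0.05 with 3 mice a group.

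No gene passed the test between trained and control mice within the selected nuclei. Among the genes of smallest p were the noncoding gene Mir670hg, the neurotrophin receptor gene Ntrk2 and the Rab-GTPase regulator gene Tbc1d1, each with every trained mouse above every control mouse. Of 12353 genes tested with edgeR (quasi-likelihood fit, Benjamini-Hochberg adjustment), 0 (0%) had an adjusted p under 0.05, and 585 had an unadjusted p under 0.05. In counts simulated with a fixed variability for all genes, 84% of well-counted genes changed 2-fold were recovered. The variability between the real mice was not used, so this does not tell what share of real 2-fold changes would be found. DESeq2 called 5 genes, all higher (0.0405%): Mir670hg (adjusted p = 0.000519), Tbc1d1 (0.00546), and Ntrk2, Pdlim1 and AI481877 (0.0202 each). AI481877 was at 152 CPM in cluster 8 and 0.93 CPM in the other selected nuclei, trained mouse 2 held 11 of the 28 nuclei of that cluster, and in clusters 1 to 5 the gene had too few counts to be tested. Without the filter on low counts, edgeR called 61 genes higher and 36 lower, and 91 of these 97 were also tested with the filter, where they did not pass. The 10 higher and 10 lower genes named below had the smallest p among genes whose trained mice all lay beyond all control mice. Over all genes, 566 (4.58%) had every trained mouse above every control mouse and 630 (5.1%) every trained mouse below.

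Mir670hg is a long noncoding RNA gene (chr2:94160636-94264918, minus strand) that hosts the microRNA gene Mir670. Control mice 1, 3 and 5 had 67.3, 86.5 and 81.1 CPM and trained mice 2, 4 and 6 had 182, 120 and 152 CPM (here scaled by TMM, edgeR's normalization). Every trained mouse was above every control mouse. The log2 fold change was 0.95 ± 0.15 (SE), with edgeR's adjusted p = 0.498. At least 1 UMI was found in 48.3%, 45.4% and 48.0% of the nuclei of the control mice and in 64.2%, 55.7% and 61.8% of those of the trained mice. Trained mice were also higher within clusters 1 to 4, with 149 to 301 CPM against 86.6 to 123 CPM in cluster 1 and 276 to 378 CPM against 118 to 168 CPM in cluster 4. In cluster 5, with few nuclei per mouse, the groups overlapped.

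The mature microRNAs made from the host gene are shown with the seed, bases 2 to 8, in capitals, since the counts measure the host transcript and not these products (RefSeq, GRCm38.p6, minus strand, at chr2:94261358-94261379 and chr2:94261316-94261340).
miR-670-5p: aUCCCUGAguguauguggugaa
miR-670-3p: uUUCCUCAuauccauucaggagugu
Both arms lie within the span of Mir670hg, and their seeds differ from each other.

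Ntrk2 encodes TrkB, the receptor of brain-derived neurotrophic factor. Controls had 974, 1162 and 910 CPM and trained mice 1801, 1516 and 1389 CPM, with no overlap. The log2 fold change was 0.63 ± 0.12 (edgeR adjusted p = 0.607). Tbc1d1 stood at 96.3, 94.2 and 76.6 CPM against 181, 131 and 152 CPM (0.80 ± 0.14, adjusted p = 0.498). The groups did not overlap for either gene, and trained mice were above control mice for Ntrk2 in each of clusters 1 to 5.

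Pdlim1, a cytoskeletal adaptor gene, was at 12.0, 9.66 and 9.42 CPM against 25.5, 18.4 and 25.1 CPM, without overlap. Klf10, a zinc-finger transcription factor gene of the immediate response to growth factors, was at 22.9, 20.7 and 23.5 CPM against 31.5, 37.1 and 36.6 CPM, also without overlap. The other higher genes were Rassf5, Ppm1h, Rnd3 and Ankrd33b, with log2 fold changes of 0.42 to 0.95. Without the low-count filter 7 of the 10 named higher genes passed the test, all except Klf10, Rnd3 and Ankrd33b.

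Tnfaip6 encodes a secreted hyaluronan-binding protein. Controls had 7.91, 5.35 and 3.44 CPM and trained mice 32.2, 44.2 and 11.0 CPM (log2 fold change 2.43 ± 0.43, edgeR adjusted p = 0.501). A single nucleus held 102 of the 163 UMIs of trained mouse 4, and another 42 of the 138 UMIs of trained mouse 2. The nuclei with a Tnfaip6 UMI were 5.90%, 5.14% and 3.34% in control mice and 9.91%, 5.06% and 7.64% in trained mice, which overlap. Without trained mouse 6 it was the 1 gene that passed (log2 fold change 2.79, adjusted p = 0.0465).

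Among the lower genes, Prkdc, which encodes the catalytic subunit of DNA-dependent protein kinase, was at 42.6, 41.4 and 42.6 CPM in controls against 28.7, 30.1 and 28.9 CPM (-0.53 ± 0.12, edgeR adjusted p = 0.694). Cxxc4, a Wnt pathway inhibitor gene, was at 78.7, 74.7 and 76.8 CPM against 46.5, 51.5 and 59.4 CPM (-0.56 ± 0.12), and Rnf220, a ubiquitin ligase gene, at 35.7, 40.2 and 43.1 CPM against 22.7, 26.6 and 25.9 CPM (-0.67 ± 0.14). None of these groups overlapped. Gab1, the docking protein that couples Met to its downstream kinases, was at 5.47, 5.87 and 6.16 CPM against 2.10, 1.36 and 2.67 CPM (-1.54 ± 0.33). These levels rest on few counts, 27, 34 and 34 UMIs in control and 9, 5 and 7 UMIs in trained mice.

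The remaining lower genes, Prr5l, Itgb8, Zfp536, Aspa, Mal and St18, had log2 fold changes of -1.85 to -1.21, and several are known from oligodendrocytes. Of the 8 listed oligodendrocyte genes, all tested, 5 had every trained mouse below every control mouse (among them Prr5l, St18, Mobp and Cnp), with a list median of -0.96 against -0.01 over all genes. Their summed level was 136 to 217 CPM in control mice and 102 to 113 CPM in trained mice. In clusters 1 to 5 it was 74.1 to 101 CPM against 72.5 to 80.1 CPM, and there the log2 fold change of St18 was 0.28. Prr5l, Aspa and St18 lead cluster 6, at 88.3, 69.2 and 146 CPM against 1.78, 0.83 and 3.16 CPM in the other selected nuclei. Cluster 6 was smaller in every trained mouse (3.47% to 5.66% of selected nuclei) than in every control mouse (6.49% to 7.75%), as was cluster 9 (0.42% to 0.69% against 1.35% to 2.43%). In clusters 1 to 5, Prr5l, Zfp536, Gab1, Aspa and Mal had too few counts to be tested. Itgb8, Rnf220, Cxxc4 and Prkdc had log2 fold changes of -1.09, -0.60, -0.63 and -0.64 there, and none passed.

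**Figure D3:**
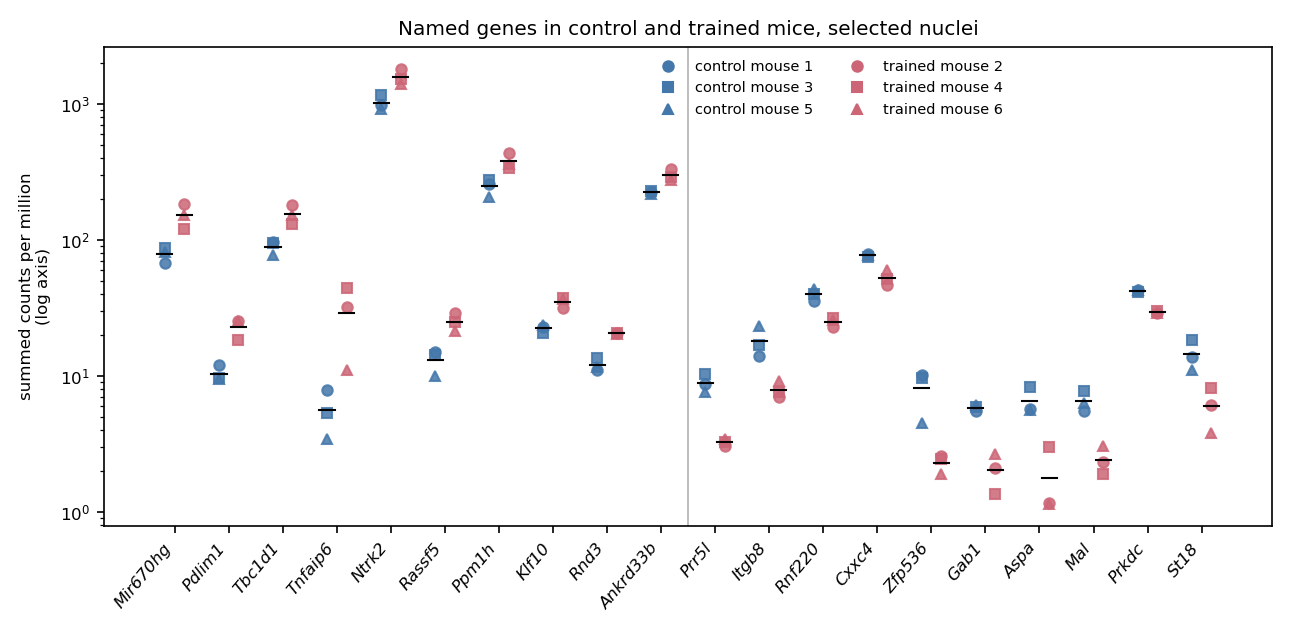
CPM (log axis) of the 10 higher and 10 lower named genes in the selected nuclei, with 3 control and 3 trained mice as points and group means as black ticks. For each gene the trained points lie on 1 side of all control points. None passed the edgeR threshold.

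Gene lists were read against the same background. Of 26 tested immediate early genes, 0 had every trained mouse above every control mouse, 1 (Ier3) had every trained mouse below, and none reached an unadjusted p under 0.05. The list median was -0.13. Fos was at 25.7, 28.1 and 48.7 CPM in control and 15.4, 33.1 and 22.5 CPM in trained mice, Arc at 75.0, 130 and 181 against 73.1, 137 and 76.9 CPM, and Egr1 at 106, 178 and 213 against 85.5, 187 and 124 CPM. All 3 overlapped between groups, with the highest value in control mouse 5.

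Of 32 tested genes of the delayed activity list, 8 had every trained mouse above every control mouse and 0 every trained mouse below, with a median of 0.13. This list was assembled with earlier results of these samples known and is not independent evidence of a direction. Besides Mir670hg and Tnfaip6 these were Cpeb3 (a translation regulator), Blnk, Nptx2, Cdkn1a, Gadd45g and Scg2. Nptx2, a pentraxin released at synapses, was at 6.08, 17.3 and 13.6 CPM against 31.8, 24.4 and 17.5 CPM. Its groups lay next to each other, without overlap (1.00 ± 0.32, edgeR adjusted p = 0.834). Cpeb3 was at 525, 586 and 550 against 699, 668 and 670 CPM (0.30 ± 0.08, adjusted p = 0.834). Bdnf, the ligand of TrkB, was at 61.0, 57.3 and 76.6 against 79.4, 71.0 and 61.7 CPM, and Homer1 at 1019, 1188 and 1458 against 1265, 1210 and 909 CPM. Both overlapped.

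Of 15 tested glucocorticoid-response genes, 3 had every trained mouse above (Zbtb16, Fkbp5 and Cdkn1a). Fkbp5, whose product binds and restrains the glucocorticoid receptor, was at 30.8, 28.6 and 20.6 against 45.6, 31.7 and 47.2 CPM (0.63 ± 0.19, edgeR adjusted p = 0.834). The summed mitochondrially encoded genes reached 319 CPM in trained mouse 2 and 90.3 to 158 CPM in the other 5 mice.

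In HGF signalling, 23 genes were tested, Gab1 was the one with separated groups, on the few counts given above, and Hgf and Met overlapped. Hgf was at 151, 148 and 131 against 132, 158 and 176 CPM, and Met at 23.9, 13.6 and 12.1 against 10.0, 14.1 and 22.1 CPM. Of 16 sodium channel genes, Scn8a and Fgf12 had separated groups upward and Scn1a and Scn2a downward, by log2 fold changes of 0.15, 0.12, -0.21 and -0.10 (edgeR adjusted p = 0.993 each). None of 28 glutamate receptor genes had separated groups. Of 34 potassium channel genes 2 were above (Kcns2 among them) and 3 below (Kcnt2, Kcnj3 and Kcnd2), and of 42 axon guidance genes 2 were above (Slit1 and Sema3e) and 2 below (Epha7 and Sema3a). These shares are near the 4.58% and 5.1% of all genes or rest on few genes.

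Whether training differed in the selected nuclei from other glutamatergic nuclei was tested as an interaction in edgeR with mouse as a block. Against 2498 Deptor-marked nuclei, chosen by the same criteria with both marker sums exchanged, 0 of 13467 genes passed (0%; 554 at an unadjusted p under 0.05, and 0 by DESeq2), with 2 genes past the threshold without control mouse 3 or without trained mouse 4 and 1 without trained mouse 6. Simulated 2-fold differences, with the same fixed variability, were recovered in 42% of well-counted genes. The smallest p belonged to Mobp, a myelin gene (-1.44, adjusted p = 0.0951), and among positive terms to Epha6, an ephrin receptor gene (0.49 ± 0.09, adjusted p = 0.175). Epha6 was at 920, 646 and 531 CPM in control and 731, 715 and 954 CPM in trained mice in the selected nuclei, which overlap, and at 571, 363 and 325 against 315, 320 and 381 CPM in the Deptor nuclei.

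Against all other glutamatergic nuclei, 2 of 16001 genes passed (0.0125%). Tnfaip6 had an interaction of 2.09 ± 0.32 on the log2 scale (edgeR adjusted p = 0.00734), with 8.8 to 12.3 CPM in control and 12.1 to 13.8 CPM in trained mice in the other nuclei. Ptgds, which encodes prostaglandin D synthase and is abundant in glia and meninges, had an interaction of -0.82 ± 0.14 (adjusted p = 0.0277). In clusters 1 to 5 alone neither passed (1.38, adjusted p = 0.96, and -0.26). DESeq2 called Ptgds and not Tnfaip6. Tnfaip6 did not pass without trained mouse 4 (1.79, edgeR adjusted p = 0.308) or without control mouse 5 (1.69, 0.0922). Ptgds did not pass without trained mouse 2 (-0.64, edgeR adjusted p = 0.217), trained mouse 6 (-0.81, 0.27), control mouse 3 (-0.74, 0.0955) or control mouse 5 (-0.81, 0.0922). Without control mouse 5 the count was 0, without trained mouse 6 it was 1, and without control mouse 3 it was 9.

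Mir670hg, Ntrk2 and Tbc1d1 did not pass the interaction in either test. Mir670hg stood at 83.8, 100.6 and 84.0 CPM in control and 175, 140 and 150 CPM in trained mice in the Deptor nuclei, and at 53.7 to 64.4 against 80.7 to 114 CPM in the other glutamatergic nuclei. Its interaction terms were 0.16 ± 0.11 and 0.33 ± 0.11 (edgeR adjusted p = 1 and 0.918). The terms of Ntrk2 were 0.18 ± 0.11 and 0.23 ± 0.11. A difference of the selected nuclei from the others was not shown for these genes.

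Recent activity was then read from IEGs at equal depth. A nucleus was called IEG-high when 3 or more UMIs of 28 IEGs remained after thinning to 2000 UMIs, and IEG-zero when none did. No selected nucleus was below 2000 UMIs. IEG-high nuclei made up 22.5%, 36.5% and 52.9% of the selected nuclei in control mice 1, 3 and 5 and 22.6%, 45.6% and 20.1% in trained mice 2, 4 and 6. Control mouse 5 and trained mouse 4 were highest and the groups overlapped. The means were 37.3% ± 15.2 and 29.45% ± 14.02 (SD, permutation test, exact and two-sided, p = 0.6, n = 3 each). The difference was -7.84 percentage points over all mice and -0.05 without control mouse 5. Without thinning, 92.6% to 98.7% of nuclei had 3 or more IEG UMIs.

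The same mice were high in the other populations. IEG-high shares were 16.2%, 28.6% and 36.0% in control and 23.4%, 34.3% and 19.9% in trained mice in Deptor nuclei, and 17.2%, 32.5% and 40.2% against 20.1%, 39.8% and 21.9% in the remaining glutamatergic nuclei. Trained mouse 4 and control mice 3 and 5 were thus the 3 highest in each of the 4 populations compared, including Syt6/Rprm nuclei. The spread between mice of 1 group was larger than the difference between groups.

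**Figure D4:**
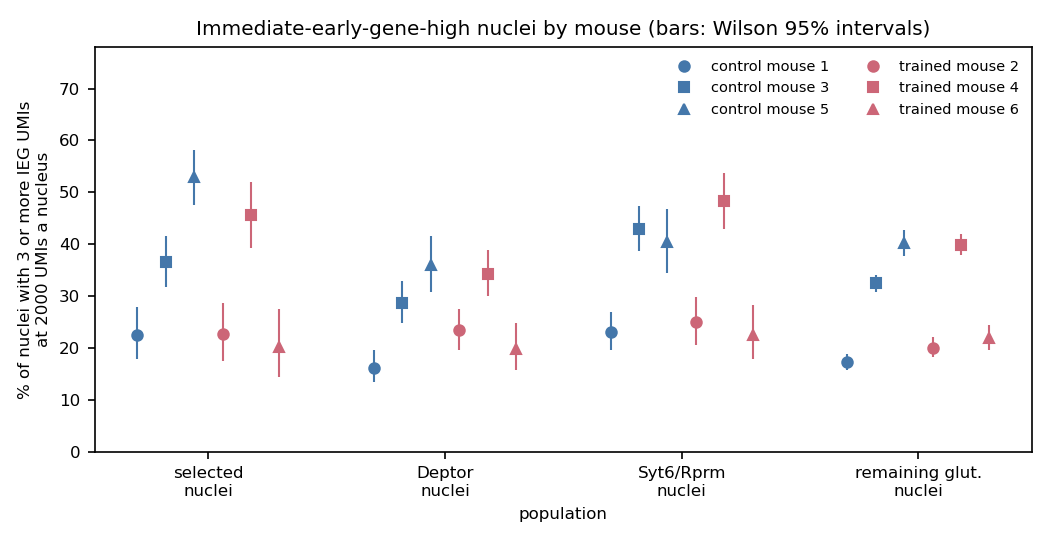
Percent of nuclei with 3 or more IEG UMIs at 2000 UMIs a nucleus, by mouse, in 4 populations of glutamatergic nuclei. Bars are 95% Wilson intervals, which cover counting error only. Control mice 3 and 5 and trained mouse 4 are above the other 3 mice in every population.

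Within each mouse, IEG-high nuclei (555 in all) were compared with IEG-zero nuclei (326 in all), with the IEGs themselves left out of the result. The IEG-high nuclei carried more Bdnf, Homer1, Pcsk1, Mir670hg and Tiparp and less Rbfox1, Robo1 and Egfem1. Of 8463 genes, 614 (7.26%) were higher and 385 (4.55%) lower by edgeR with mouse as a block. DESeq2 called 225 and 166, all among these. The median depth was 13473 UMIs in IEG-high and 17697.5 UMIs in IEG-zero nuclei. Cluster 1 held 30.3% of the IEG-high and 13.8% of the IEG-zero nuclei, and cluster 6 held 3.96% and 11.0%. Without control mouse 1 the test called 375 genes higher, and without control mouse 3 it called 242 lower. In clusters 2 to 5 alone, 220 genes were higher and 107 lower, of which 209 and 100 were among the genes above.

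Bdnf (chr2:109674700-109727007, plus strand) stood at 25.2, 15.7 and 40.3 CPM in IEG-zero nuclei of control mice 1, 3 and 5, and those of trained mice 2, 4 and 6 had 47.2, 39.3 and 35.1 CPM. In IEG-high nuclei it stood at 195, 91.2 and 111 CPM and at 179, 100.0 and 187 CPM. It was higher in 6 of 6 mice, and the ranges did not overlap. The log2 fold change was 2.14 ± 0.15 (SE, edgeR adjusted p = 2.54e-10), and 2.05 in clusters 2 to 5.

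Homer1, a postsynaptic scaffold gene with a short activity-induced form that the counts do not separate, rose from 882 ± 130 to 1717 ± 212 CPM (0.96 ± 0.08, edgeR adjusted p = 4.95e-09). Pcsk1, the proprotein convertase of dense-core vesicles, rose from 70.9 ± 19.2 to 191 ± 48.5 CPM (1.44 ± 0.15, adjusted p = 2.18e-07). Mir670hg rose from 89.5 ± 46.3 to 188 ± 96.9 CPM (1.08 ± 0.10, adjusted p = 8.58e-08). All 3 were higher in 6 of 6 mice. Without the mouse block Mir670hg did not pass (0.97, edgeR adjusted p = 0.066).

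The other higher genes named by smallest p included Brinp1, the peptide gene Cck, the phosphatase gene Dusp14, the ferritin gene Fth1 and the chaperone gene Hspa8, with log2 fold changes of 0.53 to 1.02, in 6 of 6 mice each. Cck, Fth1 and Hspa8 are among the leading genes of cluster 1, and in clusters 2 to 5 their log2 fold changes were 0.84, 0.80 and 1.04, each past the threshold. Of 26 tested genes of the delayed activity list 19 were higher and 0 lower, beside 7.26% and 4.55% of all genes. The list median was 0.55 against 0.00 over all genes. Among the higher ones were the regulator of G-protein signalling gene Rgs4 (32.5 ± 7.67 to 76.8 ± 17.6 CPM), Tiparp (24.9 ± 11.5 to 82.1 ± 17.3 CPM), the granin genes Vgf and Scg2, and the neuronal pentraxin genes Nptx2 and Nptx1. Plk2, Kdm6b, Crem, Rasgrp1, Plk3, Blnk and Nefm did not pass the test.

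Promoters of these genes were searched for the cAMP response element TGACGTCA, which is its own reverse complement, in the 250 bases before and 50 after the gene start (RefSeq, GRCm38.p6). Of the 614 higher genes 464 had a promoter in the table and 34 of them (7.33%) held the element. It was found in 4 of 288 (1.39%) promoters of lower genes, in 4.02% of those of all tested genes and in 2.03% of all 27025 promoters. In the delayed activity list 3 of 25 promoters held it. Those of Pcsk1 and Scg2, the members of the list that were both higher and held the element, are shown with it in capitals (chr13:75089607-75089906, plus strand, and chr1:79439977-79440276, minus strand).
Pcsk1: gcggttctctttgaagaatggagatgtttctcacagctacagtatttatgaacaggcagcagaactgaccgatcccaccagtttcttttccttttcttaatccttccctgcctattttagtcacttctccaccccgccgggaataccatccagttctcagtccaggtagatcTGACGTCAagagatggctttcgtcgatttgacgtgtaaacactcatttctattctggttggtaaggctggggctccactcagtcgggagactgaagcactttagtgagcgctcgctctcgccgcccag
Scg2: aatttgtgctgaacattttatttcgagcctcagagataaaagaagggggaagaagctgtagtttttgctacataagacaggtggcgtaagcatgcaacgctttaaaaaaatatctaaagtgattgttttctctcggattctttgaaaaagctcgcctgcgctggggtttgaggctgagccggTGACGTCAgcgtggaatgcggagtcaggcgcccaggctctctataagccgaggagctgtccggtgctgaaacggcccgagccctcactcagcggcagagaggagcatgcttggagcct
The element starts 78 bases before the gene start of Pcsk1 and 68 bases before that of Scg2. A match describes these letters and not a bound site.

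Hgf, on which the nuclei were chosen, was at 124, 124 and 128 CPM in IEG-zero nuclei of the control mice and 116, 146 and 157 CPM in those of the trained mice. In IEG-high nuclei it was at 245, 165 and 141 CPM and at 191, 180 and 274 CPM, higher in 6 of 6 mice. Its log2 difference was 0.57, and 0.36 in clusters 2 to 5, given without a test because Hgf chose the nuclei. The rule asks for a fixed number of marker UMIs, which is a higher CPM in the shallower IEG-high nuclei (median 13473 against 17697.5 UMIs). What this adds to the Hgf difference was not tested. Met was at 18.1 ± 8.43 and 14.8 ± 7.19 CPM, and the other tested genes of the HGF list did not pass, except Sh3kbp1, which was lower (-0.39 ± 0.12, edgeR adjusted p = 0.0361). Cpne4 was lower in 5 of 6 mice (471 ± 106 to 346 ± 78.7 CPM, -0.45 ± 0.08, adjusted p = 0.00036).

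Ntrk2 was higher in IEG-high nuclei in 6 of 6 mice, by 0.33 ± 0.06 (edgeR adjusted p = 0.000368). Within IEG-zero nuclei it was at 990, 1067 and 772 CPM in control and 1765, 1294 and 1216 CPM in trained mice, and within IEG-high nuclei at 1220, 1267 and 1015 against 1978, 1597 and 1805 CPM. The groups were separated in both classes. The same held for Mir670hg, Tbc1d1, Ppm1h, Klf10 and Ankrd33b, whereas the groups of Nptx2, Rnd3 and Tnfaip6 were separated in IEG-high nuclei and overlapped in IEG-zero nuclei. Those of Scg2 and Cxxc4 were separated in IEG-zero nuclei and overlapped in IEG-high nuclei, and those of Pdlim1 and Rassf5 overlapped in both. Rnf220 and Prkdc were lower in all trained mice in both classes. All of these genes had separated groups in the sums over the same nuclei, which is how most of them were chosen. Separation within a class is therefore partly inherited from that choice and is not a replication. These comparisons within classes carry no test.

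Excitability and receptor genes moved in both directions. The list counts here stand beside 4.55% of all 8463 genes lower and 7.26% higher. Of 27 glutamate receptor genes 10 were lower and 2 higher (Shisa6 and Grm2), with a median of -0.19. The lower genes included Gria3 (546 ± 74.8 to 416 ± 97.6 CPM, -0.40 ± 0.08), Grin2b (-0.19 ± 0.05) and Grm5 (-0.18 ± 0.05), each lower in 6 of 6 mice. Grik1 was lower in the fit (-1.19) but higher in 3 of 6 mice, with 0.72 in clusters 1 to 5. Of 18 modulator receptor genes 4 were higher (Adrb1, Cnr1, Chrm1 and Adra1a) and 3 lower (Htr2c, Nr3c2 and Htr1f). The beta-adrenergic receptor gene Adrb1 rose from 29.4 ± 4.71 to 57.7 ± 6.11 CPM, in 6 of 6 mice (0.98 ± 0.14, edgeR adjusted p = 1.5e-05).

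Of 15 sodium channel and channel-partner genes, the higher ones included the beta subunit gene Scn2b (0.75 ± 0.18), and the leak-channel partner gene Unc80 was lower (-0.25 ± 0.06). The potassium channel gene Kcnt2 (-0.31 ± 0.07), the calcium channel gene Cacna1c (-0.30 ± 0.07) and the ryanodine receptor genes Ryr2 and Ryr3 were lower. Of 31 axon guidance genes 8 were lower, led by Robo1 (649 ± 100 to 400 ± 106 CPM), and 2 were higher. Over all genes 4.55% were lower and 7.26% higher.

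The largest decreases were those of genes that lead cluster 6. Nxph1 fell from 185 ± 119 to 8.53 ± 5.02 CPM (-4.48 ± 0.27, edgeR adjusted p = 7.32e-12) and Tshz2 from 166 ± 92.5 to 9.02 ± 11.7 CPM (-3.72 ± 0.34). In cluster 6 Nxph1 stood at 1024 CPM against 7 CPM in the other selected nuclei, and neither had enough counts to be tested in clusters 1 to 5. Mgat4c (-1.58) stood at -0.66 in clusters 1 to 5 and Vwc2l (-1.85) at -0.34 (adjusted p = 0.283). Cdh18 (-1.09) stood at -0.24 in clusters 2 to 5 (adjusted p = 0.173). Egfem1 (-1.06 ± 0.12) stood at -1.04 in clusters 1 to 5, and the splicing factor gene Rbfox1 (-0.69 ± 0.08) at -0.67.

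**Figure D5:**
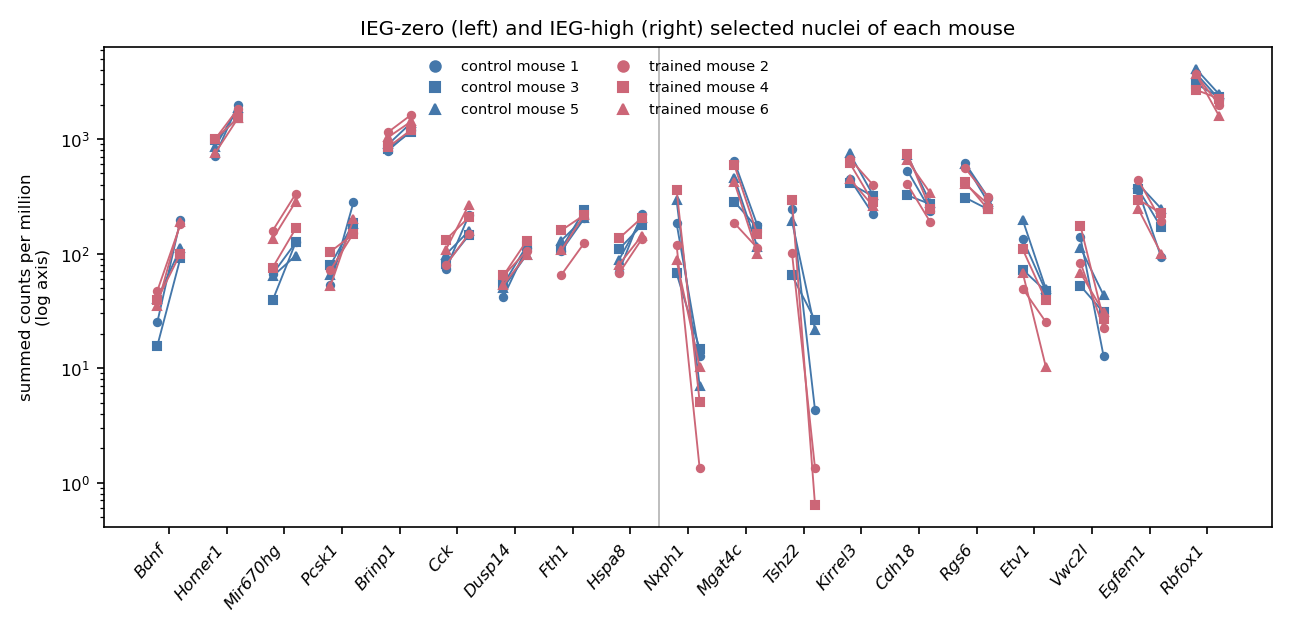
CPM (log axis) in IEG-zero (left end of each line) and IEG-high nuclei (right end) of each mouse for 9 higher and 10 lower genes of smallest p. Every line of Bdnf, Homer1, Mir670hg and Pcsk1 rises, and every line of the 10 genes on the right falls. For Tshz2, 1 mouse at 0 CPM in IEG-high nuclei is not drawn.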

How the data were processed

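Single-nucleus RNA-seq libraries of 6 mice were used. Per the submitters' processing notes, the authors made the deposited counts (raw UMIs per gene and nucleus, unit count) with Cell Ranger 4.0.0 and the mm10 genome. Per the labels, a shallow and a deep sequencing run were joined, 2 runs per mouse. Of intronic reads, the sources used here do not say whether they were counted.

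The members and gene lists were chosen with earlier results of these data known. Counts of the selected nuclei were summed per mouse (2708862 to 5691571 UMIs) and tested with edgeR 4.0.16 in R 4.3.3 (TMM, filterByExpr, quasi-likelihood test, Benjamini-Hochberg threshold 0.05), with DESeq2 1.42.0 as an alternative. IEG-high and IEG-zero sums and interactions had mouse as a block. Every adjusted p in the text is from one of these models across all genes. SE is the log2 fold change divided by the root of the F statistic. Doublets were marked per mouse (expected rate 6%) and kept. Clustering used scanpy 1.11.5 (15 principal components, 15 neighbours, Leiden resolution 0.5). Thinning drew 2000 UMIs per nucleus with a fixed seed. Shares were compared by exact permutation over mice.

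The identity genes named had the 20 highest and 10 lowest log2 differences. The training genes named were 10 in each direction with the smallest p among those whose groups did not overlap, and the IEG genes 10 in each direction with the smallest p. Predicted genes and rule genes were left out, and a few genes are not reported here. Interaction genes had the smallest p. Other named list members and AI481877 were chosen after their values were seen. Scripts were tested on simulated counts. Alternatives were other filters, normalizations, marker sums, clusters, doublets left out, and each mouse left out.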

Additional observations from a re-analysis of the deposited data

Results flagged for a closer look

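For 2 genes the difference between trained and control mice was not the same in the selected nuclei as in the other glutamatergic nuclei, by edgeR's interaction test with mouse as a block. For Tnfaip6 the interaction was 2.09 on the log2 scale (adjusted p = 0.00734). Its summed level in the selected nuclei was 8.15, 5.55 and 3.55 CPM in control and 33.6, 45.9 and 11.3 CPM in trained mice, with 102 of the 163 UMIs of trained mouse 4 in 1 nucleus. For Ptgds the interaction was -0.82 (adjusted p = 0.0277). Its level in the selected nuclei was 36.8, 125 and 62.2 CPM in control and 22.4, 56.6 and 41.4 CPM in trained mice, which overlap. Ptgds was at 641 CPM in cluster 6 and 25.0 CPM in the other selected nuclei, and Tnfaip6 at 79.5 CPM in cluster 7 and 11.8 CPM elsewhere. With clusters 6 to 9 left out neither gene passed, but fewer nuclei were then summed. What these clusters add to the interactions was not tested. DESeq2 did not call Tnfaip6, and edgeR did not without trained mouse 4 or control mouse 5. Ptgds did not pass without trained mouse 2 or 6 or control mouse 3 or 5.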

How the results depend on the processing

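Between trained and control mice, edgeR called 0 genes higher and 0 lower. DESeq2 called 5 higher, edgeR without a low-count filter 61 higher and 36 lower, and edgeR with 1 mouse left out 0 to 1 higher. Between IEG-high and IEG-zero nuclei the 614 higher and 385 lower genes became 225 and 166 with DESeq2, 349 and 148 without the mouse block, and 220 and 107 in clusters 2 to 5. With 2 or more IEG UMIs as the limit, 371 were higher. Leaving out 1 mouse gave 375 to 562 higher and 242 to 345 lower. The interaction with Deptor nuclei gave 27 genes without the filter and 0 to 2 with 1 mouse left out. The interaction with other glutamatergic nuclei gave 1 gene with DESeq2, 27 without the filter, 0 in clusters 1 to 5 and 0 to 9 with 1 mouse left out.

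The trained minus control difference in the share of kept nuclei was -0.52 percentage points and 0.00938 when the rule was applied after thinning, where 7 nuclei met it. It was -0.32 without cluster 5 (exact permutation p = 0.1), where the groups did not overlap. In the share of glutamatergic nuclei it was -1.93, 0.126 after thinning, and -3.15 to 0.0131 with 1 mouse left out. Without cluster 5 it was -1.23 (exact permutation p = 0.3), where the groups overlapped. The lower identity genes numbered 64, 108 in clusters 1 to 5 and 20 beside Rorb/Cux2 nuclei. Beside the latter, which were themselves chosen on Rorb and Cux2, the log2 difference was -0.34 for Rorb, 0.23 for Sdk2 and 0.75 for Bcl11b. St18 was at 0.28 in clusters 1 to 5. The causes of these changes were not tested. No paired analysis was possible because the control and trained mice share no replicate numbers. With 3 mice a group, 2-fold changes simulated with a fixed variability, not that of the real mice, were recovered in 84% of well-counted genes. The deposited counts join both runs, so depth per run is not separable.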

Other observations

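Genes of glucocorticoid response, among them Fkbp5 and Zbtb16, were summed per mouse. In all selected nuclei the sum was 801 to 904 CPM in control mice and 898 to 1002 CPM in trained mice, which overlap. In IEG-zero nuclei the sum was 710 to 791 CPM in control mice and 891 to 990 CPM in trained mice, without overlap. In IEG-high nuclei it was 838 to 957 CPM and 890 to 1010 CPM, which overlap. In the remaining glutamatergic nuclei it was 834 to 905 CPM and 897 to 970 CPM, which overlap. These sums carry no test, and the list was chosen with earlier results of these data known.

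Genes of the striatal list summed to 1335 to 1928 CPM in control and 1814 to 2607 CPM in trained mice in the selected nuclei, which overlap. Trained mouse 2 was highest here and in the remaining glutamatergic nuclei (1524 CPM). Only 1 of the 9 listed genes reached 20 CPM in the selected or remaining nuclei, so the sum does not describe the list as a whole. It carries no test. Of the listed genes, Drd1, Drd2, Adora2a and Penk were under 1 CPM in the selected nuclei.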
